A study of Homo sapiens with 7 samples.

Results

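The 44 genes described here encode the proteins that license DNA replication origins and the core of the replisome, the machinery that copies DNA in S phase. They were chosen by name, as all spots on the array that are not controls and whose gene name equals one of the 44 symbols, and all 44 were found among the 36337 gene names on the array. They were measured in HCT116 H2B-GFP, a human colon carcinoma cell line that the labels call diploid and that expresses the histone H2B fused to the green fluorescent protein. The cells were exposed to 10 nM bafilomycin A1, an inhibitor of the vacuolar proton pump that blocks autophagy, for 30 h, in medium that holds 10% serum by the labels and a smaller share by the methods of the study. Of the 7 samples of the series, the 4 bafilomycin A1 cultures, described as biological replicates, were analysed, with 1 single-colour Agilent array each. The 3 untreated samples of the same line were not analysed here, so the values describe the treated cells and the differences between their replicates, and no comparison with untreated cells, no fold change of treatment and no p-value was computed. The arrays shared 1 slide and 1 scan. Nothing here describes more than this 1 line, and RNA was taken from whole cultures, in which fewer cells in S phase and less RNA per cell cannot be told apart.

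Origins are licensed in G1, when the origin recognition complex, bound to DNA, works with CDC6 and CDT1 to load the ring-shaped MCM2-7 helicase. Geminin holds CDT1 back outside G1. In S phase CDC45 and the GINS complex join the loaded ring to form the active helicase, and DNA polymerase alpha with its primase subunits starts each strand, which polymerases delta and epsilon then extend on the sliding clamp PCNA. Many of these genes are known targets of the E2F transcription factors, which switch them on as cells enter S phase.

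Letters of E2F sites were frequent in the promoters of these genes. RefSeq promoter windows of GRCh38.p14, 300 bases long with 250 of them before the annotated start of the gene, were matched to 37 of the 44 genes by symbol; MCM4, MCM5, GINS4, POLD3, RPA2, RPA3 and DNA2 were not matched. On either strand, 18 of the 37 windows (48.6%) held at least 1 of the E2F sequences TTTCCCGC, TTTCGCGC, TTTGCCGC and TTTGGCGC, against 3.33% of the 27305 windows of the same length in the table. These letters were found in all 4 matched windows of the MCM2-7 genes (MCM2, MCM3, MCM6 and MCM7), in both CDC6 and CDT1, in GINS1, GINS2 and GINS3, in POLA1 and POLA2, in POLE and POLE2, in PCNA and RFC3, and in ORC3, MCM8 and LIG1. The CCAAT letters were in 22 of the 37 windows (59.5%) and in 35.7% of all windows. The letters TTTGAA of the CHR element, known from genes of G2 and mitosis, were in none of the 37 windows (0%) and in 15.4% of all windows. The 6 stretches of 60 bases before the start that follow come from a licensing factor, 3 helicase subunits, a polymerase and the clamp, and show these letters in capitals, read on the strand of the gene.
CDT1, chr16:88803728-88803787, plus strand: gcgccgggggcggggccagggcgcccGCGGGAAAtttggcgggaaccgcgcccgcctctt
MCM3, chr6:52284883-52284942, minus strand: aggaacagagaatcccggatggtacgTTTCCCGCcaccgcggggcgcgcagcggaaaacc
MCM6, chr2:135876560-135876619, minus strand: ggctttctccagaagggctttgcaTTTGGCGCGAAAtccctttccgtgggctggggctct
MCM7, chr7:100101551-100101610, minus strand: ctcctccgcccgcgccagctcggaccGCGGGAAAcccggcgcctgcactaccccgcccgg
POLA1, chrX:24693755-24693814, plus strand: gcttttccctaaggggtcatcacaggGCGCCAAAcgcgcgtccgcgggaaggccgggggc
PCNA, chr20:5126648-5126707, minus strand: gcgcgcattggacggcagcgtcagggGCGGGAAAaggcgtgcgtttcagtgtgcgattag
In CDT1, MCM7 and PCNA the capitals are TTTCCCGC read on the opposite strand, and in POLA1 they are TTTGGCGC read so. In MCM6 they are a TTTGGCGC that overlaps a TTTCGCGC of the opposite strand. A match of letters is a description of the window and not a bound site.

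The array reported the 44 genes through 57 probes of 60 bases, with 1 probe for 33 genes, 2 for 9 genes and 3 for PCNA and PRIM2. Of the 57 probes, 56 were well above the local background on all 4 arrays and none was saturated (0 spots), and 7 probes lie across an exon junction by their GRCh37 coordinates. All 44 genes counted as detected, which means that at least 1 probe was well above background on every array, where 52.5% of all gene names did. Levels are given as the log2 of the background-subtracted signal minus the median of the array, so that 0 is the median of the probes with a signal above 0 on that array and 1 unit is a 2-fold difference, and levels of different genes are not compared because probes differ in brightness. All 44 genes had a mean above this median.

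The label of the cell line was checked against marker genes. Of 7 markers of simple epithelium, 6 were detected on all 4 arrays, among them EPCAM at 8.84 ± 0.15 (SD, n = 4) and KRT19 at 11.81 ± 0.08, while VIL1 was above background on no array. Of the 4 leukocyte markers 2 were detected (PTPRC and CD3E, with means of -2.07 and -0.34), of the 4 fibroblast markers 1 (COL1A1, with a mean of 2.91), and of the 3 endothelial markers 2 (CDH5 and VWF, with means of 0.83 and 0.75). COL1A2, COL3A1, PDGFRB and PECAM1 were above background on no array. Replicate 3 stood apart from the other arrays in the number of spots that the scanner software marked as outliers, 2249 against 514 to 725 elsewhere, and these spots were left out.

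Replicate 1 was the lowest array for most of the replication genes. The lowest of the 4 values fell on replicate 1 in 28 of the 44 genes (63.6%), where this was so in 26.9% of all 19083 detected genes, and the highest fell on replicate 2 in 20 genes (background 25.3%) and on replicate 3 in the other 24 genes (54.5%, near the background of 48.5%). None (0 of 44) was highest on replicate 1 or 4 (background 26.2%), and 11 were lowest on replicate 3 (25%, near the background of 23.2%). In 43 of the 44 genes the level on replicate 2 exceeded that on replicate 1, as in 61.2% of all detected genes, and DNA2 was the exception. That count stayed between 41 and 43 under the other ways of processing the arrays. Without replicate 3, the array highest for the most detected genes, 39 of the 44 were highest on replicate 2 (background 52.5%). Replicate 2 was singled out because earlier results of these data had a replication list highest there. The counts on it are therefore a description. The 0 of 44 did not stay: 6 genes were highest on replicate 1 or 4 after quantile normalization (13.6%, against 38.5% of all detected genes), 8 with the processed signal (18.2% against 41.6%) and 9 when arrays were centred on probes above background (20.5% against 40.1%).

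The differences were small. The mean over the 44 genes deviated from its own 4-array mean by -0.12, 0.15, 0.01 and -0.05 on replicates 1 to 4, on the log2 scale. Over all detected genes these deviations were -0.02, 0.03, 0.07 and -0.09. The mean of the 44 genes on replicate 3 included RPA1, which deviated by -2.61 there. The median deviations were -0.17, 0.11, 0.11 and -0.07 over the 44 genes and -0.03, 0.03, 0.10 and -0.10 over all detected genes. By the median, the 44 genes were thus about as high on replicate 3 as on replicate 2. The median SD between replicates was 0.20 over the 44 genes and 0.21 over all detected genes, and 19 of the 44 genes (43.2%) spanned more than 1.4-fold between their highest and lowest array, as did 46.4% of all detected genes. The count of 19 became 5 without replicate 3 (background 21.9%) and 11 without replicate 1 (background 37.7%). The 1.4-fold limit is the one the study's methods use for a changed gene. In this setting the spread of the replication genes was close to that of all detected genes. After normexp and quantile normalization 25% of the 44 genes passed 1.4-fold against 15.6% of all detected genes, and with centring on the median over all probes 79.5% did against 64.6%. No test was run on these counts.

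**Figure D1:**
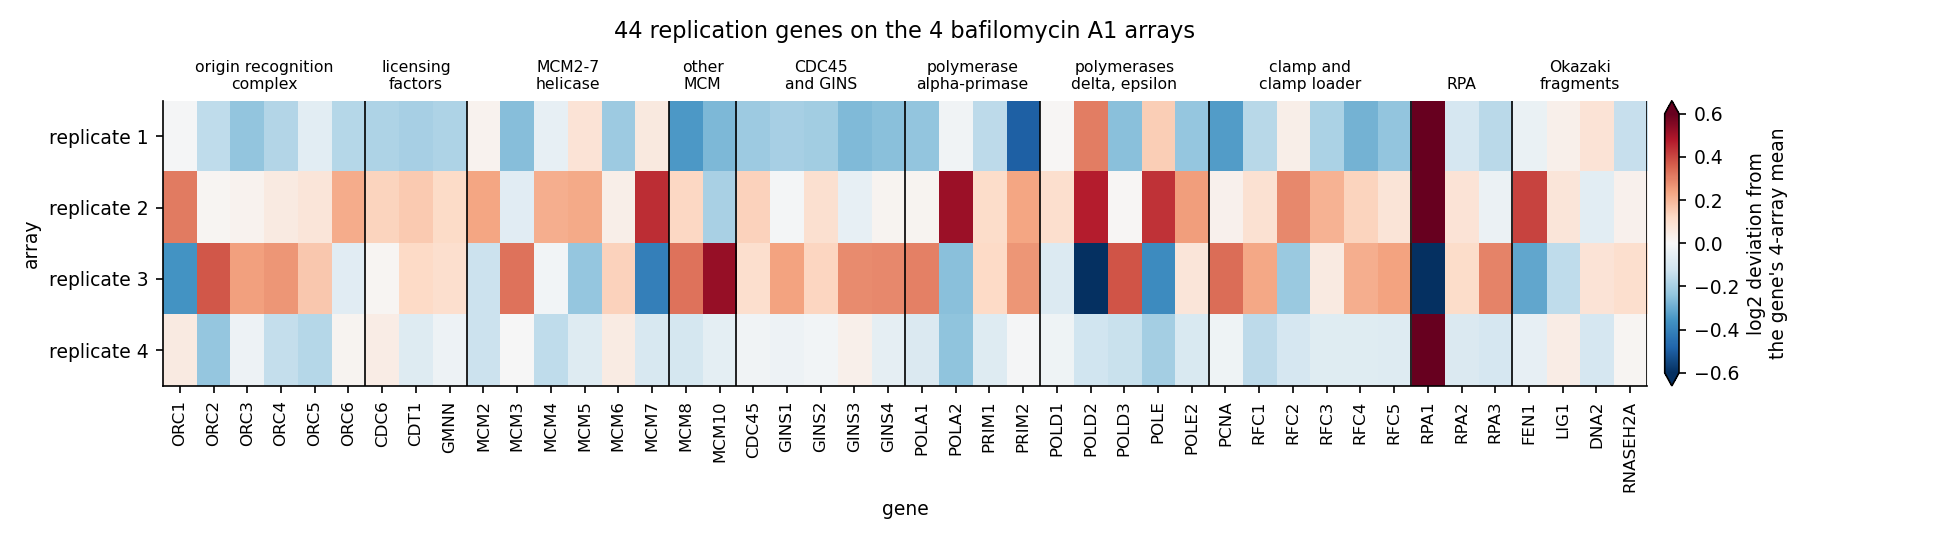
Each column is 1 of the 44 genes, grouped by role, and each row is 1 array; colour gives the log2 deviation from the gene's own mean over the 4 arrays and is capped at 0.6 in either direction, a cap that RPA1 exceeds on all 4 arrays and POLD2 on replicate 3. Replicate 1 is mostly blue, with 28 genes at their lowest, and the highest value lies on replicate 2 in 20 genes and on replicate 3 in 24.

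The origin recognition complex marks the DNA sites at which replication can begin. ORC1, its largest subunit and an ATPase, had levels of 1.50, 1.82, 1.15 and 1.56 on replicates 1 to 4. ORC2 had 2.49, 2.65, 3.02 and 2.41, and ORC3 had 3.61, 3.87, 4.10 and 3.82. ORC1 was therefore lowest where ORC2 and ORC3 were highest, on replicate 3. ORC4 and ORC5 were also highest on replicate 3, with spans of 1.36-fold and 1.26-fold, whereas ORC6, the smallest subunit, was highest on replicate 2 and spanned 1.32-fold. Of the 6 subunits, ORC1 and ORC2 passed 1.4-fold, with spans of 1.59-fold and 1.52-fold. The mean of the complex deviated by -0.13, 0.12, 0.10 and -0.08 on the 4 arrays.

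The licensing factors had their lowest array in common and, in the setting used here, also their highest. CDC6, the loader ATPase, had 0.59, 0.91, 0.79 and 0.82 on replicates 1 to 4. CDT1, which carries the helicase to the origin, had 7.19, 7.55, 7.51 and 7.31. Its inhibitor geminin (GMNN) had 4.75, 5.04, 5.03 and 4.90. All 3 were lowest on replicate 1 and highest on replicate 2, so the inhibitor and the factor it inhibits were low and high together. Their spans were 1.25-fold, 1.28-fold and 1.23-fold, and none of the 3 passed 1.4-fold. The shared highest array depended on the processing. CDC6 and GMNN were highest on replicate 4 instead with the processed signal and with centring on probes above background. CDC6 was so after normexp and quantile normalization too. With centring on the median over all probes all 3 were highest on replicate 3. Replicate 1 stayed the lowest for all 3 in these settings.

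The MCM2-7 subunits form 1 ring with 1 copy of each, but their values did not run together. MCM2 had 5.98, 6.20, 5.83 and 5.83 on replicates 1 to 4. MCM4 had 3.64, 3.91, 3.67 and 3.54, and MCM5 had 5.24, 5.39, 4.93 and 5.08. These 3 subunits were highest on replicate 2, and MCM2 and MCM4 were lowest on replicate 4 and MCM5 on replicate 3. MCM7, also highest on replicate 2 and lowest on replicate 3, had 5.91, 6.29, 5.44 and 5.75, the largest span of the ring at 1.81-fold. MCM3 did the opposite on replicate 3, with 6.94, 7.13, 7.52 and 7.19 and a span of 1.50-fold. MCM6 had 5.00, 5.25, 5.36 and 5.27. MCM3 and MCM6 were thus lowest on replicate 1 and highest on replicate 3, the array on which MCM5 and MCM7 were lowest. The mean of the 6 subunits deviated by -0.06, 0.18, -0.05 and -0.07, with replicate 2 apart from 3 close values. MCM7 deviated most in it, by 0.44 on replicate 2 and -0.41 on replicate 3, and its 2 probes differed, as given below.

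The values of CDC45 and the 4 GINS subunits, which turn the loaded ring into a working helicase, kept closer together than those of the ring. Each of these genes was read by 1 probe, with 35% to 45% G and C bases. The probes of MCM3, MCM4 and MCM6 also held 35% to 45%, but those of MCM2, MCM5 and MCM7 held 53.3% to 55%. The part of base composition in this contrast was not tested. CDC45 had 5.24, 5.60, 5.56 and 5.44. GINS3, with the largest span of the group at 1.46-fold, had 4.20, 4.42, 4.75 and 4.49, and GINS4 had 3.40, 3.66, 3.93 and 3.59. All 5 genes of the group were lowest on replicate 1, and the 4 GINS genes were highest on replicate 3 while CDC45 was highest on replicate 2. GINS1 and GINS2 spanned 1.35-fold and 1.26-fold. The group mean deviated by -0.23, 0.04, 0.21 and -0.02.

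**Figure D2:**
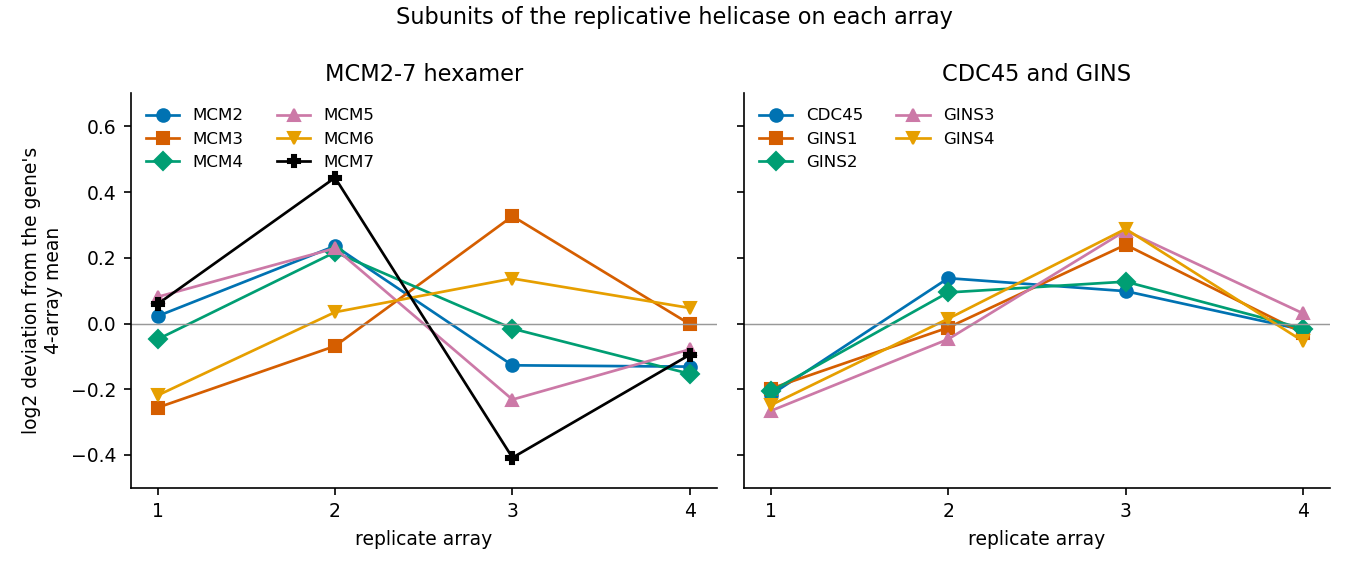
The log2 deviation of each gene from its own 4-array mean is plotted for the 6 subunits of the MCM2-7 ring on the left and for CDC45 and GINS on the right; lines join the values of 1 gene and stand for no order of the arrays. On replicate 3 MCM3 lies above and MCM7 below all other ring subunits, while the 5 genes on the right all start lowest on replicate 1.

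MCM8 and MCM10 are not part of the ring. MCM8, a helicase of recombination repair, had 2.12, 2.59, 2.79 and 2.36, and MCM10, a firing factor that binds the active helicase, had 1.51, 1.58, 2.30 and 1.72. Both were highest on replicate 3 and lowest on replicate 1, with spans of 1.59-fold and 1.73-fold.

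Polymerase alpha-primase lays down the RNA-DNA primers. POLA1, its catalytic subunit, had 4.04, 4.29, 4.58 and 4.19 and was highest on replicate 3. POLA2, its regulatory subunit, deviated from its mean of 1.64 by -0.02, 0.52, -0.25 and -0.24 and was highest on replicate 2. PRIM2, the large primase subunit, had 0.55, 1.28, 1.31 and 1.03. PRIM1, the catalytic primase subunit, varied least of the 4, with a span of 1.21-fold, and the other 3 all passed 1.4-fold. In their highest array the 2 alpha subunits thus split between replicates 2 and 3 as MCM7 and MCM3 did. For MCM7, however, 1 of its 2 probes hardly differed between these arrays, with 9.21 on replicate 2 and 9.17 on replicate 3.

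The replicative polymerases delta and epsilon held both the steadiest and one of the most variable of the 44 genes. POLD1, the catalytic subunit of polymerase delta, had 4.83, 4.92, 4.74 and 4.80, the smallest SD of the 44 at 0.08. POLD2, its accessory subunit, had 5.07, 5.23, 4.11 and 4.64, with an SD of 0.50 and a span of 2.18-fold. POLE, the catalytic subunit of polymerase epsilon, had 0.72, 1.00, 0.19 and 0.37. All 3 were lowest on replicate 3 and highest on replicate 2. POLD3 was highest on replicate 3, with a span of 1.54-fold, and POLE2 was highest on replicate 2, with a span that did not pass 1.4-fold. The group mean deviated by 0.00, 0.25, -0.13 and -0.12.

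The clamp and its loader were low on replicate 1. PCNA, the ring that holds polymerases on DNA, had 6.47, 6.83, 7.14 and 6.78 and spanned 1.59-fold. RFC2 had 3.64, 3.90, 3.38 and 3.51, and RFC4 had 5.45, 5.87, 5.95 and 5.66. PCNA and the loader subunits RFC1, RFC4 and RFC5 were highest on replicate 3, whereas RFC2 and RFC3 were highest on replicate 2. RFC2 was the only one of these 6 genes not lowest on replicate 1. RFC1, RFC3 and RFC5 spanned 1.32-fold, 1.32-fold and 1.39-fold. The group mean deviated by -0.20, 0.14, 0.14 and -0.08.

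RPA, the trimer that coats single-stranded DNA, held the largest SD of the 44 genes, and it rested on 1 spot. RPA1, the large subunit, had 2.60, 2.87, -0.77 and 2.65, an SD of 1.74 and a span of 12.5-fold. It was read by 2 probes. The bright probe (A_23_P107073, chr17:1801166-1801225 of GRCh37, plus strand) had 6.43, 6.61 and 6.37 on replicates 1, 2 and 4 and was marked as an outlier on replicate 3, so that the dim probe alone, at -0.77, gave the value there. With outlying spots kept, RPA1 had 2.60, 2.87, 3.00 and 2.65 and spanned 1.32-fold, and it was then highest, not lowest, on replicate 3. RPA2 and RPA3 were lowest on replicate 1 and highest on replicate 3, with spans of 1.16-fold and 1.37-fold. Without RPA1, the mean over the other 43 genes deviated by -0.14, 0.13, 0.07 and -0.07.

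The genes that finish Okazaki fragments varied least as a group, with a median SD of 0.10. FEN1, the flap endonuclease, had 3.99, 4.44, 3.72 and 3.98 and was the one gene of the 4 to pass 1.4-fold. LIG1, the DNA ligase that seals the nicks, had 5.27, 5.30, 5.08 and 5.28. DNA2, a nuclease and helicase, had 0.48, 0.34, 0.49 and 0.30, and RNASEH2A, the catalytic subunit of RNase H2, had 6.19, 6.35, 6.43 and 6.34. LIG1, DNA2 and RNASEH2A had the smallest SDs of the 44 after POLD1, all 0.10.

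Probes richer in G and C bases tended to be lower on replicate 3 than on replicate 2, but base composition did not sort the probes by their highest array. The 26 probes highest on replicate 2 held 35% to 55% G and C, and the 30 highest on replicate 3 held 28.3% to 48.3%. These ranges overlap. The 2 PCNA probes with 40% differed in sign, with replicate 3 minus replicate 2 at 0.26 and -0.30. Of the 56 probes above background on all arrays, 10 had a GC content of 50% or more, and none of these (0 of 10) was higher on replicate 3 than on replicate 2, with a median difference of -0.70. Of the 46 probes below 50% GC, 30 were higher on replicate 3 (65.2%), with a median difference of 0.12. Over all probes above background, 40.5% of those at or above 50% GC and 66.2% of those below it were higher on replicate 3. The share below 50% GC was thus near that of all probes. Across the 56 probes, which share the same arrays and in part the same genes, Pearson's r between GC content and the difference was -0.62 and Spearman's rho -0.47. Over all 24633 probes above background, r was -0.30 and rho -0.35, with medians of -0.10 at or above 50% GC and 0.15 below it. None of the 35 probes of the replication genes that were lowest on replicate 1 had a GC content above 48.3%, but only 10 of the 56 probes reached 50%. The same was not computed over all probes, so this count has no background to be read against. The first 30 bases of 4 probes are shown, G and C in capitals, because they hold the most negative differences, replicate 3 minus replicate 2 (the dim MCM7 probe and POLD2), the most positive one (MCM10) and the steadier probe of MCM7.
MCM7, bright probe A_23_P93690, chr7:99690520-99690579, minus strand: CCGGaCaCGGatCaCttttGtCtGattCCa
MCM7, dim probe A_33_P3258223, chr7:99697277-99697336, minus strand: aCCtGGaCGaCGtaGCCGaGGatGaCCCCG
POLD2, A_23_P71146, chr7:44156765-44156824, minus strand: CtCCGtGaGaGaCGaCGGGaaGtttCtGGt
MCM10, A_33_P3867534, chr10:13251992-13252051, plus strand: tGCtCttaCattattGtGGaGCCCtGtGat
The coordinates are those of the whole probes in GRCh37. The 60 bases hold 55% GC in both MCM7 probes and in POLD2 and 28.3% in MCM10. The level on replicate 3 minus that on replicate 2 was -1.12 for POLD2 and 0.72 for MCM10.

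**Figure D3:**
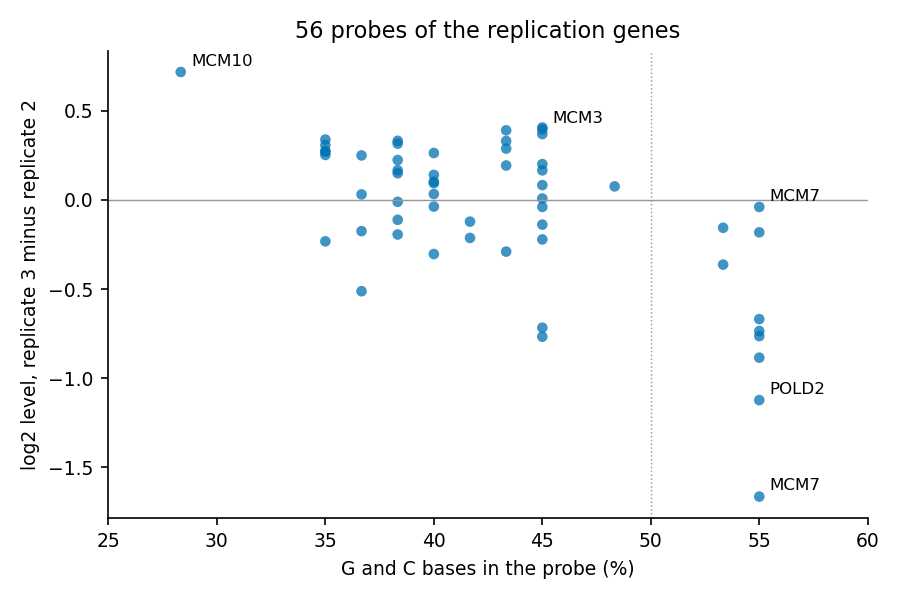
Each point is 1 of the 56 probes of the replication genes, with its GC content in percent on the horizontal axis and its log2 level on replicate 3 minus that on replicate 2 on the vertical axis; the dotted line stands at 50% GC. All 10 probes to the right of it lie below 0, from -0.04 to -1.66, both values being probes of MCM7.

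Probes of 1 gene did not always give the same answer. Of 10 genes with several probes above background on all arrays, 7 had the highest array in common and 7 the lowest. The bright MCM7 probe had 9.03, 9.21, 9.17 and 9.02 on replicates 1 to 4, an SD of 0.09, and the dim one had 2.78, 3.38, 1.71 and 2.49, an SD of 0.69. The spread of MCM7 given above was thus that of the dim probe, although both have the same GC content. The dim probe starts at base 661 of its transcript and the bright one at base 2724. The upstream probe of MCM5, at base 1736, had 4.43, 4.69, 3.92 and 4.31 (SD 0.32), and its downstream probe, at base 2169, had 6.06, 6.09, 5.94 and 5.86 (SD 0.11). In both helicase genes the upstream probe was lowest on replicate 3, and the downstream probe was lowest on replicate 4. PCNA differed in sign: the level on replicate 3 minus that on replicate 2 was -0.30 for its probe at base 713 and 0.31 for its probe at base 1083.

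The place of the probe along the transcript was compared across the array. In the 7 replication genes with several such probes on 1 transcript, the outermost probe on the 3′ side had the larger difference, replicate 3 minus replicate 2, than the one on the 5′ side in 6 (MCM5, ORC2, ORC4, PCNA, PRIM2 and RPA2), and POLE was the exception. Over all 2511 transcripts read by several probes this was so in 76.2%, with a median excess of 0.30 on the log2 scale, against 0.09 in the 7 genes. The share was 76.3% for replicate 3 minus replicate 1, 72.9% for replicate 3 minus replicate 4 and 67.2% for replicate 4 minus replicate 1 (median excess 0.09). It was 45.0% for replicate 2 minus replicate 1 (median excess -0.03) and 32.9% for replicate 2 minus replicate 4 (median excess -0.11). The part of GC content and of probe position in the split of the genes between replicates 2 and 3 was not tested.

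**Figure D4:**
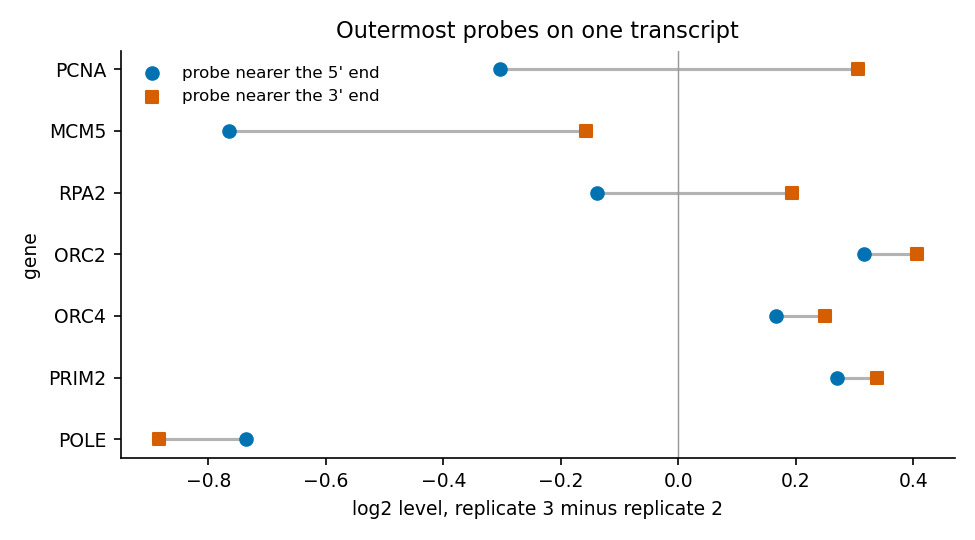
For the 7 genes with several probes on 1 transcript, the log2 level on replicate 3 minus that on replicate 2 is plotted for the outermost probe on the 5′ side (circles) and on the 3′ side (squares). In 6 genes the square lies to the right, by 0.61 in PCNA and in MCM5, and in POLE it lies to the left.

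For probes printed in several spots, the scatter of single spots could be set beside the difference between arrays. GINS2, ORC6 and PRIM1 each had 1 probe printed in 10 spots, whose log2 signals had a mean within-array SD of 0.17, 0.22 and 0.16. The SD of the same probes between the 4 arrays, after averaging the spots, was 0.15, 0.17 and 0.14. These SDs are of unlike quantities, the first of single spots and the second of means of up to 10 spots, in which the scatter of spots is smaller. Probes with 1 spot lack that averaging. The 44 genes were read by 84 spots on each array, and 6 of the 336 readings were marked as outliers and left out.

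Genes outside the 44 gave the background of the cell cycle. Of 26 other replication genes, such as checkpoint and chromatin assembly factors, 25 were detected on all 4 arrays, POLE3 being detected on 3, and 14 of the 25 were lowest on replicate 1. Their mean deviated by -0.02, 0.18, 0.14 and -0.31. The value on replicate 4 included DONSON and DBF4, whose SDs of 1.64 and 2.02 were the largest of the list. Both had 2 probes, 1 of them above background on all arrays, and DBF4 had a value from 1 or 2 probes by array. The median deviation of the list on replicate 4 was -0.11. The 15 genes of S-phase entry and nucleotide supply were all detected and all 15 were lowest on replicate 1, with mean deviations of -0.27, 0.05, 0.26 and -0.04; UHRF1, RRM2 and DTL varied most, with SDs of 0.38, 0.33 and 0.33. Of 20 mitotic genes, 18 were lowest on replicate 1 and 15 spanned more than 1.4-fold, with mean deviations of -0.31, 0.07, 0.31 and -0.07. PLK1, BUB1 and KIF11 varied most of these, with SDs of 0.61, 0.46 and 0.42. PLK1 had 2 probes, 1 of them above background on all arrays. Its value came from 1 or 2 probes by array and so did not rest on the same probes throughout. The mitotic and S-phase lists were thus low on replicate 1 as the replication genes were, with deviations further from 0 than that of the 44 genes.

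**Figure D5:**
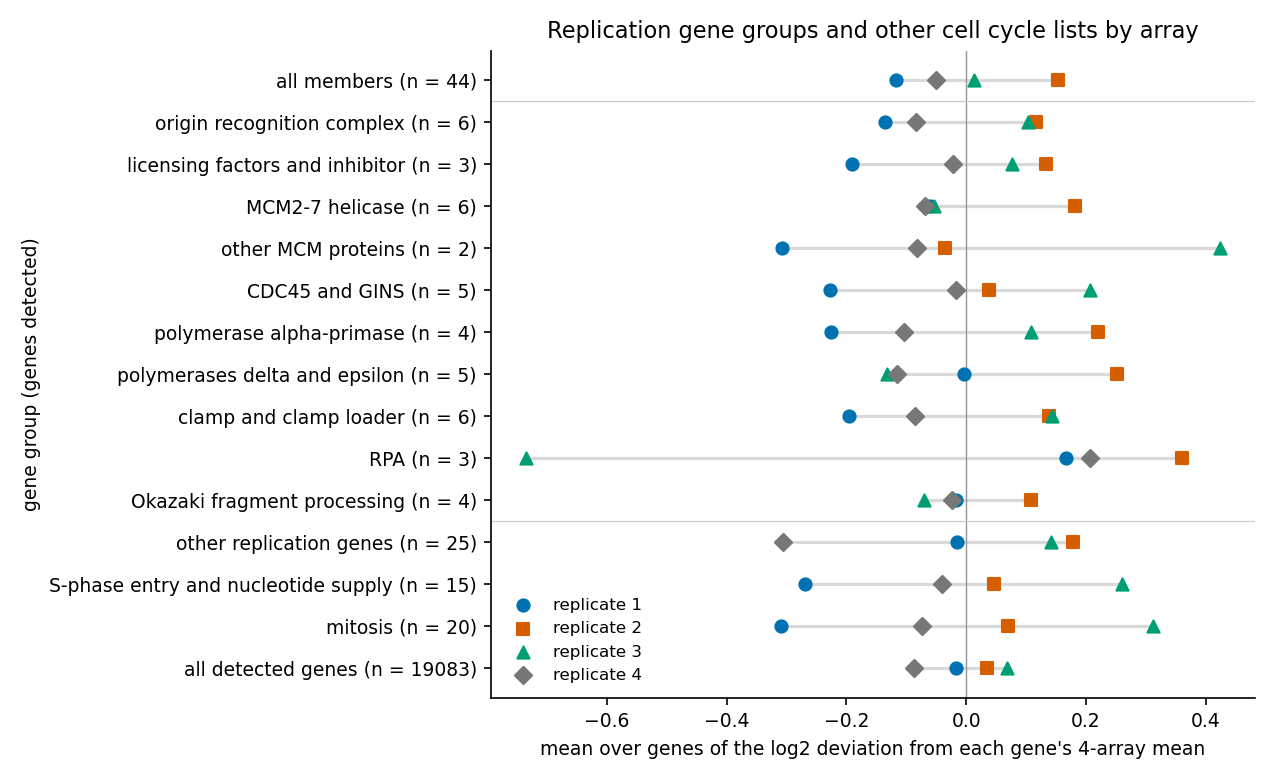
For each group of genes, the mean log2 deviation from each gene's own 4-array mean is plotted on the horizontal axis, with 1 symbol for each array. Replicate 1 is the leftmost symbol for the 44 genes together (-0.12), for CDC45 and GINS (-0.23) and for mitosis (-0.31), and the RPA row is stretched to -0.73 on replicate 3 by RPA1.

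The E2F letters were set beside the arrays on which the genes were highest or lowest. Of the 18 genes with such letters in the promoter window, 9 were highest on replicate 2 and 13 were lowest on replicate 1. Of the 19 genes with a window that held none, 9 were highest on replicate 2 and 11 were lowest on replicate 1. Over all detected genes, 25.3% were highest on replicate 2 and 26.9% lowest on replicate 1. Whether the letters go with the array was not tested.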

How the data were processed

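Each array has 1 file from Agilent Feature Extraction 10.7.3.1 (per the submitters' processing notes), deposited as linear intensity, with the background subtracted and no normalization between arrays. The deposited files also flag each spot as well above background, saturated or outlying, and give probe coordinates in GRCh37. Controls and outlying spots were dropped, spots of a probe were averaged, and signals at or below 0 were left out on that array. As in the methods of the study, the log2 signal minus the array median was then taken, and the probes of each gene were summarised by their median. A probe counted as above background when more than 50% of its kept spots were. Deviations are from the mean of a gene over the 4 arrays. All 44 genes are named; values on every array are given for MCM2 to MCM7, CDC6, CDT1, GMNN, genes with 1 array apart by Dixon's ratio, the 3 largest and 3 smallest SDs, and up to 3 genes a group, and up to 3 genes of each other list by SD. The members and lists, and replicate 2 as the array to count on, were chosen with earlier results of these data known. The counting steps were tested on simulated data. Other settings tried were centring of the processed signal on its 75th percentile, normexp with an offset of 50 and quantile normalization (limma 3.58.1), other probe filters and centrings, the mean over probes, and leaving out each array; the count lowest on replicate 1, group deviations and leaving out RPA1 were added after seeing the data. Sequences of promoters are RefSeq's (GRCh38.p14), those of probes the files'. Python 3.11.15 and R 4.3.3 were used. With 4 arrays, precision is limited by their number.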

Additional observations from a re-analysis of the deposited data

Results flagged for a closer look

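Of 59 values checked over the 4 arrays, the 44 genes and 15 means of gene groups, 2 had 1 array far from the others by Dixon's ratio of the gap to the whole range; chance marks about 1 in 20. RPA1 lay apart on replicate 3, with a ratio of 0.926, the array on which its bright probe was marked as an outlier. With outlying spots kept its values were 2.60, 2.87, 3.00 and 2.65. The mean of the MCM2-7 helicase lay apart on replicate 2, where it was highest, with a ratio of 0.938. Its deviation was 0.18 there against -0.06, -0.05 and -0.07 on the other arrays. In this mean MCM7 deviated most, by 0.44 on replicate 2 and by -0.41 on replicate 3. The dim MCM7 probe had 2.78, 3.38, 1.71 and 2.49, and the bright one had 9.03, 9.21, 9.17 and 9.02. The ratio without the dim probe was not computed.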

How the results depend on the processing

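The mean over the 44 genes stayed below its own mean on replicate 1 and above it on replicate 2 in every setting run. Of 330 group deviations 25 changed sign, 3 of them RPA on replicate 3, which was 0.21 with outlying spots kept and, in both settings without incomplete probes, 0.21 as well, and 18 in groups other than RPA, whose deviation was at most 0.13 in size. The level of 10 genes lay below 0 in some setting. All 44 genes stayed detected under the other detection rules and with any array left out, except RPA1 when all probes of a gene had to be above background (43). The count spanning more than 1.4-fold, 19, was 11 after normexp and quantile normalization (background 15.6%), 35 with centring on the median over all probes (background 64.6%), and 5 to 19 with 1 array left out, the 5 being without replicate 3 and 11 without replicate 1. The count highest on replicate 2, 20, was 11 with that centring (background 15.2%) and 20 to 39 with 1 array left out, the 39 being without replicate 3. The count lowest on replicate 1, 28, ranged from 27 (background 28.4%, after normexp) to 36 (background 55%, with that centring). The deviation of the mean on replicate 1, -0.12, was -0.27 with centring on all probes, -0.064 after normexp and -0.066 without replicate 2. On replicate 2 it was 0.15, but 0.072 with centring on all probes, 0.089 with the processed signal and 0.099 with centring on probes above background. The SD of the mean over arrays, 0.12, was 0.19 with centring on all probes, and 0.065 to 0.14 with 1 array left out, the 0.065 being without replicate 2. The median SD, 0.20, was 0.16 with the processed signal, 0.14 after normexp, 0.27 with centring on all probes and 0.15 to 0.24 with 1 array left out. The median level, 4.16, was 1.72 with the processed signal, 3.70 after normexp, 5.31 with centring on all probes and 1.84 with centring on probes above background, since each sets another 0. Of the levels of single genes, 168 of 528 moved by more than the SD between replicates. No paired analysis was possible because only the treated samples were analysed. With 1 array per culture, differences between cultures, RNA extracts and hybridizations cannot be told apart, and dim probes, as those of RPA1 and PRIM2, limit what their genes can show.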
